A study of Mus musculus with 6 samples.

Results

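The small proline-rich (Sprr) genes encode the small, repeat-built proteins that keratinocytes cross-link into the cornified envelope. They were examined here in 6 expression arrays of cultured newborn mouse dermal fibroblasts with and without the DNA-demethylating drug 5-aza-2'-deoxycytidine. The members were all probe sets whose single gene symbol was Sprr1a, Sprr1b, Sprr2d, Sprr2f, Sprr2h, Sprr2i, Sprr2k or Sprr3, which gave 8 probe sets for 8 genes out of 18193 genes with a probe set of their own. The family was chosen by its signal on these same arrays, in treated against control cells, so the differences of its members between groups are given as a description, without a test.

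The cells carried an X-linked GFP transgene under the chicken β-actin promoter with a CMV enhancer. The transgenic fathers had a 129/ICR mixed background and were crossed to BL6 mothers, and the labels give the strain as B6. All cells came from dermal explants of mice 0 to 2 days old, were at passage 4, and had first been sorted for cells not expressing GFP. Female cells of this kind carry the transgene on the inactive X chromosome. GFP-positive cells (2 arrays) and GFP-negative cells (2 arrays) had both received 4 μM drug for 48 h with 24 h of recovery, and were separated from each other by a second sort for GFP. Untreated control cells (2 arrays) had 48 h in culture and 24 h in normal medium with no drug and no second sort, so drug and second sort cannot be told apart in any comparison with control. The descriptions of the treated samples call the cells untreated with 4 μM drug, whereas their treatment and source labels state drug exposure. The sex label is mixed for control replicate 2 and female for the other samples, so the inactive X may not apply to all cells of that control. Whether a replicate pooled several animals is not given in the sources used here.

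In skin, Sprr proteins are made as keratinocytes leave the basal layer and differentiate. Transglutaminases cross-link them to loricrin, involucrin and late cornified envelope proteins under the plasma membrane, where they act as short, flexible bridges. Sprr1 and Sprr2 genes are also known as genes induced by stress and injury in other tissues, and AP-1 factors (Fos and Jun family dimers) and Ets factors are known regulators of their promoters. The genes lie side by side on chromosome 3 in the epidermal differentiation complex, next to the loricrin, involucrin, late cornified envelope and S100 genes. Fibroblasts are not a known source of a cornified envelope.

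The upstream sequences of 4 members are given because the treated and control arrays separated for Sprr1a and Sprr2k, whereas Sprr2i and Sprr1b were dim relatives from the same subfamilies. Each is the 250 bases before the annotated start, read 5′ to 3′ on the gene's strand from RefSeq on build GRCm38.p6, with matches to the AP-1 motif TGACTCA, searched on both strands, and to the octamer ATTTGCAT, also searched on both strands, in capitals. The coordinates are chr3:92485882-92486131, minus strand, for Sprr1a, chr3:92432332-92432581, plus strand, for Sprr2k, chr3:92407741-92407990, plus strand, for Sprr2i, and chr3:92438780-92439029, minus strand, for Sprr1b.
Sprr1a: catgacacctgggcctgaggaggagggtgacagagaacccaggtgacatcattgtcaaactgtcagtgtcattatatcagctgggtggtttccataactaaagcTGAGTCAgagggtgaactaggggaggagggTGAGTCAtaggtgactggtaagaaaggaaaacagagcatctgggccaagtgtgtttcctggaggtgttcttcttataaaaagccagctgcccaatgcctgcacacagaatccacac
Sprr2k: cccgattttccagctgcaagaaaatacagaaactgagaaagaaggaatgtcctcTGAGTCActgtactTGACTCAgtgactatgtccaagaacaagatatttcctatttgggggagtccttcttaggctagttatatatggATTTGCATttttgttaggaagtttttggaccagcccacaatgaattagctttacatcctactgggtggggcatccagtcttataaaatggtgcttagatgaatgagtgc
Sprr2i: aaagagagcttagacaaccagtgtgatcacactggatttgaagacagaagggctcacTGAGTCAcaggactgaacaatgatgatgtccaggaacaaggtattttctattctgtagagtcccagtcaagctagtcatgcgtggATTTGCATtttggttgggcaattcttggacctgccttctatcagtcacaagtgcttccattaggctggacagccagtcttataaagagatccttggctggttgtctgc
Sprr1b: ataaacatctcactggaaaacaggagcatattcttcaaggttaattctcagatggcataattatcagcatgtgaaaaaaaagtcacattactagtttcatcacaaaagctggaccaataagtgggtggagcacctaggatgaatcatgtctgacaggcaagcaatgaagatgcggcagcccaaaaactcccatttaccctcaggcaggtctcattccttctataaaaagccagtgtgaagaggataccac

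All 8 members had an upstream sequence in RefSeq, out of 32851 promoters in all. Sprr1a and Sprr2k each held 2 exact AP-1 motifs, which 0.167% of all promoters did. Those of Sprr1a began 146 and 116 bases before the start, and those of Sprr2k 196 and 182 bases before it. Sprr2d, Sprr2f, Sprr2h and Sprr2i held 1 AP-1 motif each, while Sprr1b and Sprr3 held none in this window. At least 1 such motif was present in 6 of 8 members and in 4.46% of all promoters. The octamer, a motif read by POU-domain factors, was present in all 5 Sprr2 members and in 1.6% of all promoters. The TATA motif TATAAA, searched on both strands, was present in all 8 members and in 12.4% of all promoters. No 2 of these matches overlapped. The windows held few CpG dinucleotides, the bases whose methylation the drug reduces: none in Sprr1a and Sprr3, 1 in Sprr1b, Sprr2h, Sprr2i and Sprr2k, 2 in Sprr2f and 3 in Sprr2d, against a median of 6 over all promoters. The Sprr2 windows were 60.1% to 80.6% identical to each other, with Sprr2h and Sprr2k the most alike, so their shared motifs are not separate observations. The windows of Sprr1a and Sprr2k shared 48.5% of aligned bases. A match is a run of letters, and no binding or methylation was measured at these sites here.

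**Figure D1:**
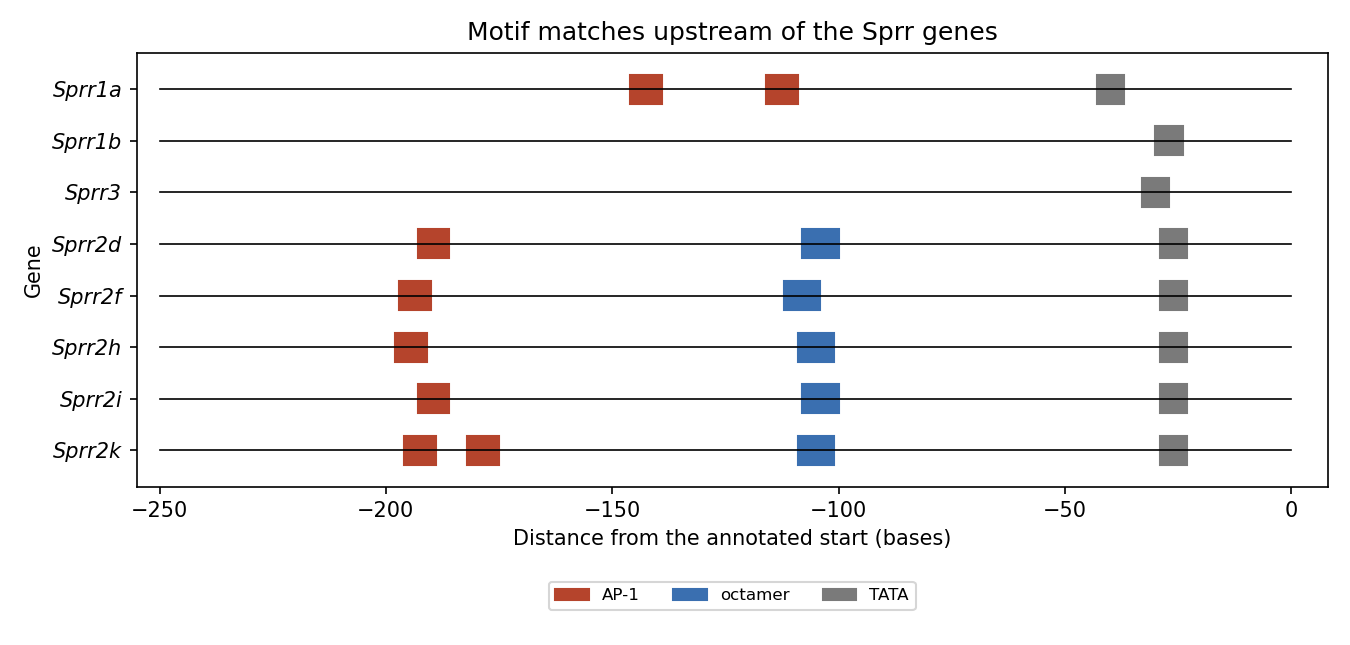
Positions of exact motif matches in the 250 bases upstream of each Sprr gene. The horizontal axis is the distance from the annotated start in bases and each line is 1 gene, with AP-1 matches in red, octamer matches in blue and TATA matches in grey. Sprr1a and Sprr2k have 2 AP-1 matches each, the octamer appears in the Sprr2 genes, and Sprr1b and Sprr3 have the TATA match alone.

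Signals are given after each array was scaled to the same trimmed mean of 500. The deposited values of 4 arrays already had this mean, whereas GFP-positive replicate 2 and GFP-negative replicate 2 had trimmed means of 50.5 and 62.0 and were multiplied by 9.90 and 8.06. The replicate numbers also marked arrays of different spread: the lower quartile of all probe sets was 38.7 to 42.5 in the replicate 1 arrays and 19.2 to 22.6 in the replicate 2 arrays. Groups were therefore also compared within each replicate number. A log2 difference is taken between values of log2(signal + 30.6), which shrinks the differences of dim probe sets. The file gives no detection calls, so signals near an array's lower quartile are treated as dim and not as expression. The drug-treated against control comparisons share the control arrays, and their values are therefore given side by side.

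Of the 8 members, Sprr1a and Sprr2k were clearly brighter on every drug-treated array than on either control array, and the other 6 were dim or showed no separation of all treated arrays from control. Over all 45037 probe sets, 7.89% had all 4 treated arrays above both controls. In RNA pooled from many cells, sorted or not, a higher level in each cell and a larger share of cells with the transcript cannot be told apart.

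Sprr1a, an envelope precursor that is also known as an injury-induced gene in neurons and heart, had signals of 758.0 and 2568 in GFP-positive cells, 776.1 and 1592 in GFP-negative cells, and 227.5 and 219.2 in control cells (replicates 1 and 2 of each). All 4 treated arrays were above both controls, and the GFP-positive and GFP-negative arrays overlapped. The means were 1663 ± 1280 in GFP-positive cells, 1184 ± 577.1 in GFP-negative cells and 223.3 ± 5.9 in control cells (SD, n = 2 each). The spread between the treated replicates was thus large, while the controls agreed closely. GFP-positive cells had 3.33 times the control signal within replicate 1 and 11.7 times within replicate 2. GFP-negative cells had 3.41 times the control signal within replicate 1 and 7.26 times within replicate 2. The mean log2 difference from control was 2.49 ± 0.56 in GFP-positive cells and 2.17 ± 0.56 in GFP-negative cells (SE of the limma fit). The highest values both came from the rescaled arrays. Without GFP-positive replicate 2 or GFP-negative replicate 2, these differences were 1.63 and 1.67. Among all probe sets of its array, Sprr1a stood at percentiles 81.4 and 93.1 in GFP-positive cells, 81.6 and 89.6 in GFP-negative cells and 62.8 and 67.1 in control cells, a ranking that does not depend on the rescaling.

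Sprr2k, a bridging protein of the largest Sprr subfamily, had close replicates in every group. Its signal was 1024 and 904.4 in GFP-positive cells, 1054 and 1144 in GFP-negative cells, and 280.2 and 252.4 in control cells. The treated arrays stood well apart from the controls, in both replicate sets and in both sorted populations. The means were 964.0 ± 84.3 in GFP-positive cells, 1099 ± 63.8 in GFP-negative cells and 266.3 ± 19.7 in control cells (SD, n = 2 each). The ratio to control was 3.65 and 3.58 in GFP-positive cells and 3.76 and 4.53 in GFP-negative cells, within replicates 1 and 2. The mean log2 differences were 1.74 ± 0.24 and 1.93 ± 0.24 in the GFP-positive and GFP-negative cells. Its percentile among probe sets was 85.3 and 84.0 in GFP-positive cells, 85.7 and 86.5 in GFP-negative cells and 66.3 and 69.0 in control cells. The control signals of Sprr1a and Sprr2k were already above the array medians of 79.8 to 134.8, so these transcripts gave signal in untreated cultures too.

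**Figure D2:**
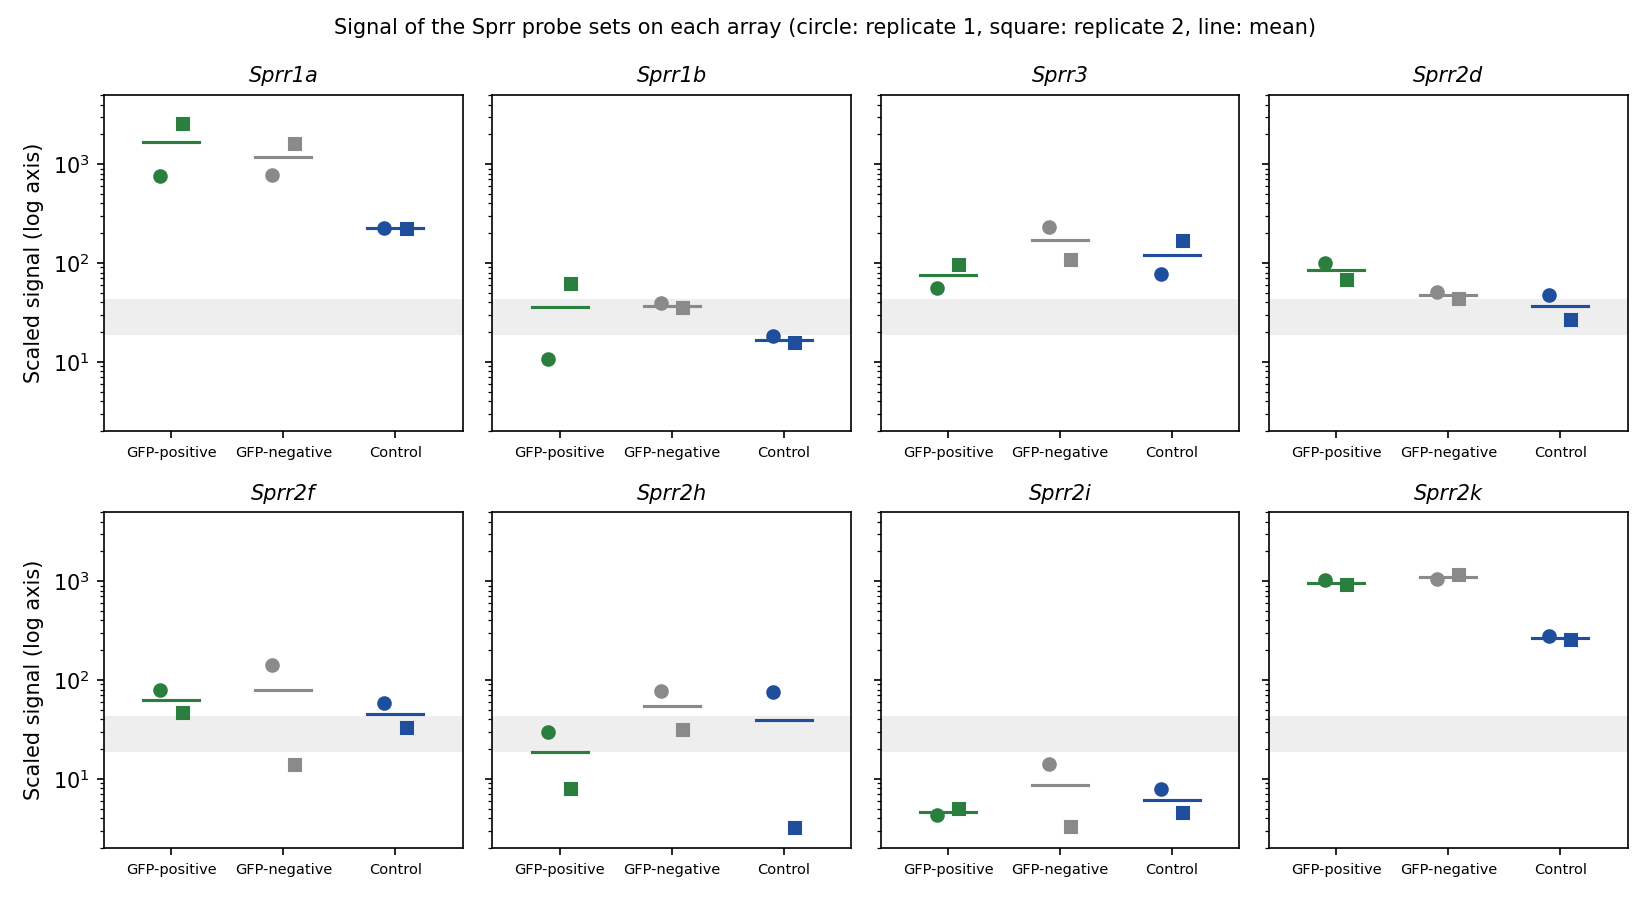
Scaled signal (log axis) of the 8 Sprr probe sets in GFP-positive (green), GFP-negative (grey) and control cells (blue). Circles are replicate 1 arrays, squares replicate 2 arrays, lines the means of 2 arrays, and the shaded band spans the lower quartiles of the 6 arrays, 19.2 to 42.5. Sprr1a and Sprr2k stand above control on all 4 treated arrays, and Sprr2i lies at or below the lower quartile throughout.

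Sprr1b, the other Sprr1 gene and an envelope precursor like Sprr1a, was dim. It had 10.6 and 61.3 in GFP-positive cells, 39.2 and 34.7 in GFP-negative cells, and 18.1 and 15.4 in control cells. Of the GFP-positive arrays, replicate 2 was above the controls and replicate 1 below both, while both GFP-negative arrays were above the controls. Its log2 difference in GFP-positive cells was -0.24 within replicate 1 and 1.00 within replicate 2. In GFP-negative cells it was 0.52 and 0.50 from control. GFP-positive and control arrays thus did not separate for it as they did for Sprr1a.

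Sprr3, a repeat-rich envelope protein best known from the oesophagus and oral lining, had 55.6 and 95.0 in GFP-positive cells, 232.1 and 108.0 in GFP-negative cells, and 76.7 and 165.0 in control cells. The GFP-negative arrays lay on either side of the higher control, and both GFP-positive arrays were below both GFP-negative ones. Its log2 difference from control was -0.32 and -0.64 within the replicate numbers in GFP-positive cells, and 1.29 and -0.50 in GFP-negative cells. It passed the filter on low signal, yet its control arrays differed from each other more than the GFP-positive cells differed from either replicate's control.

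The remaining Sprr2 genes encode bridging proteins much like Sprr2k and were dim. Sprr2d had 101.0 and 67.3 in GFP-positive cells, 50.3 and 43.5 in GFP-negative cells, and 47.5 and 26.2 in control cells. The GFP-positive arrays were above both others, by log2 differences of 0.75 and 0.78 from control and 0.70 and 0.40 from GFP-negative cells. Sprr2f had 78.6 and 46.5 in GFP-positive cells, 143.1 and 13.7 in GFP-negative cells, and 58.0 and 32.5 in control cells, so all 3 groups overlapped. Sprr2h had 29.8 and 7.92 in GFP-positive cells, 76.5 and 31.4 in GFP-negative cells, and 75.4 and 3.2 in control cells, a spread of its controls that spans most of its values. Its probe set is of the type that can bind related transcripts, the only such one among the 8. Sprr2i had 4.3 and 4.95 in GFP-positive cells, 14.2 and 3.22 in GFP-negative cells, and 7.8 and 4.5 in control cells. It stayed at or below the lower quartile on every array, so no level can be read for it.

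The family did not move as a block. In GFP-positive cells, 4 of 8 members (Sprr1a, Sprr2d, Sprr2f and Sprr2k) were higher than control within both replicate numbers and 1 (Sprr3) was lower within both. Over all probe sets, 31.2% were higher and 27.4% lower within both. The GFP-positive arrays lay wholly above control for 3 members (Sprr1a, Sprr2d and Sprr2k), against 16.3% of all probe sets. In GFP-negative cells, 5 members (Sprr1a, Sprr1b, Sprr2d, Sprr2h and Sprr2k) were higher within both numbers and none was lower, against 30.7% of all probe sets that were higher and 25.8% that were lower. The GFP-negative arrays lay wholly above control for Sprr1a, Sprr1b and Sprr2k, against 14.8% of all probe sets. The median log2 difference of the 8 members from control was 0.34 in GFP-positive cells and 0.42 in GFP-negative cells, against 0.02 and 0.03 over all probe sets. Only 3 members passed the filter on low signal (Sprr1a, Sprr2k and Sprr3).

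**Figure D3:**
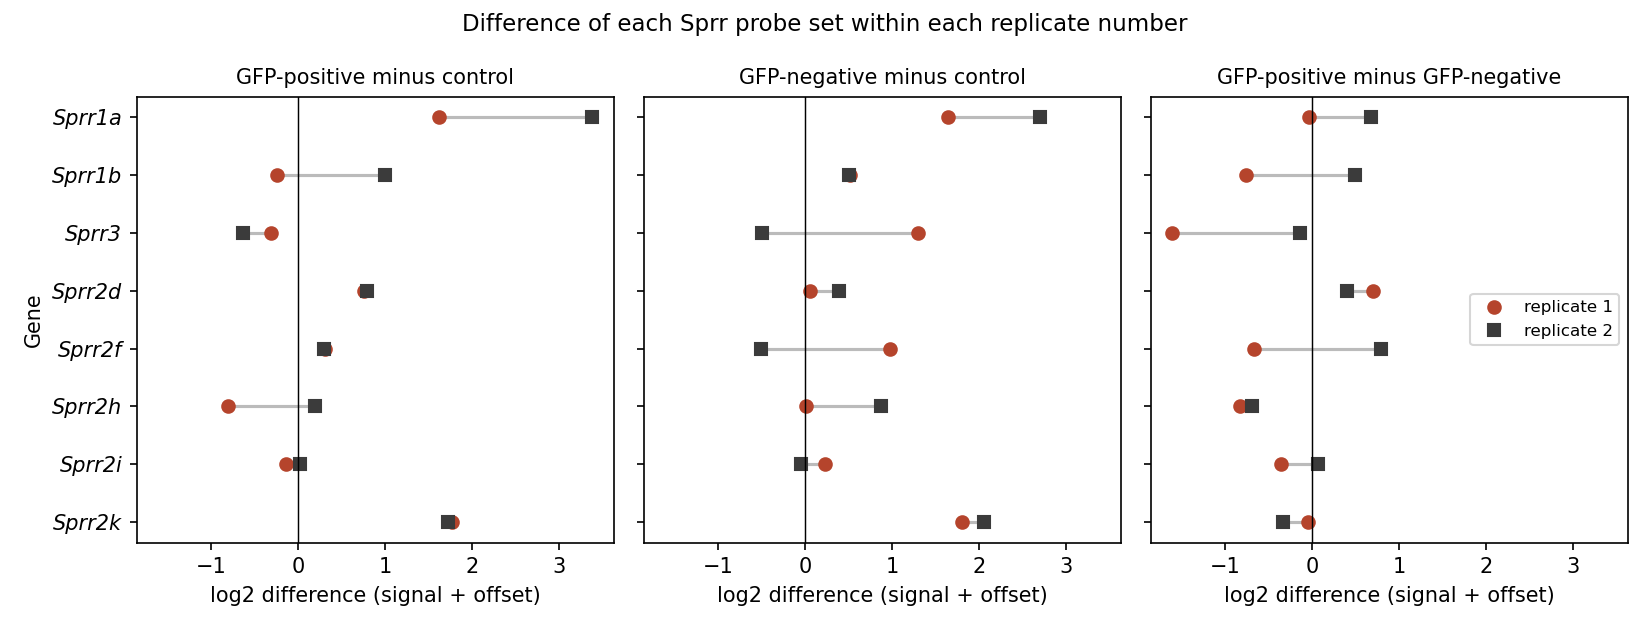
Log2 difference of each Sprr probe set (horizontal axis, log2 of signal plus offset) within replicate 1 (circles) and replicate 2 (squares), for GFP-positive minus control, GFP-negative minus control and GFP-positive minus GFP-negative cells. The line joins the 2 replicates. Sprr1a and Sprr2k are to the right of 0 by at least 1.61 in both comparisons with control, and the points of Sprr1b, Sprr2f, Sprr2h, Sprr2i and Sprr3 lie on both sides of 0 in at least 1 of these comparisons.

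The second sort asked whether cells that switched on the silent GFP transgene differ from treated cells that did not. Sprr1a differed between GFP-positive and GFP-negative cells by -0.03 within replicate 1 and 0.68 within replicate 2 on the log2 scale. Sprr2k differed by -0.04 and -0.33. Of the 8 members, only Sprr2d was higher in GFP-positive cells within both replicate numbers, which 25.6% of all probe sets were. Its GFP-positive arrays both exceeded its GFP-negative arrays, which was so for 11.8% of all probe sets. For Sprr2h, Sprr2k and Sprr3 both GFP-positive arrays were below both GFP-negative arrays, against 11.5% of all probe sets. The median difference of the members between the sorted populations was -0.14, with -0.51 within replicate 1 and 0.24 within replicate 2. With 2 arrays a group, these differences were not tested against the spread between replicates. They do not show that the populations differ or that they are alike.

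A few more probe sets of the family were not members because they name several genes or a pseudogene. The brightest, which matches Sprr2a1, Sprr2a2 and Sprr2a3 and is of a type prone to cross-hybridization, had 635.8 and 214.7 in GFP-positive cells, 587.4 and 441.8 in GFP-negative cells, and 408.6 and 205.4 in control cells. Its GFP-positive arrays overlapped the controls, and its GFP-negative arrays were above both. The pseudogene Sprr2j-ps had at most 21.3 on any array.

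Over all probe sets that passed the filter, limma with Benjamini-Hochberg adjustment called 33 of 27022 (0.122%) in GFP-positive cells against control, 8 (0.0296%) in GFP-negative cells against control and 0 (0%) between the sorted populations, where 169 had an unadjusted p under 0.05. With the replicate number as a block, the shares were 6.21%, 3.57% and 0%. The fit without the block counts deviations shared by same-numbered arrays as spread within groups. A list with no calls therefore does not show that its genes were unchanged. The following gene lists were read against these shares, and their counts give the genes that passed in each direction.

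Other cornified envelope and epidermal differentiation genes were the nearest relatives by function. Of 58 listed genes, 48 were on the array and 26 passed the filter, and limma called none in any comparison, where 5, 7 and 0 had an unadjusted p under 0.05 in GFP-positive cells against control, GFP-negative cells against control and between the sorted populations. With the replicate block, 6 rose in GFP-positive cells (Crct1, Lce1f, Lce1h, Lor, Pkp1 and Sbsn) and 5 rose in GFP-negative cells (Crct1, Lce1f, Lce1h, Lce1i and Lor), with none falling. All 4 treated arrays exceeded both controls for 6 of the 26 (Crct1, Cst6, Lce1f, Lce1h, Pkp1 and Sbsn) and lay below both for none, against 9.46% and 8.26% of the probe sets that passed the filter. The list's median log2 difference was 0.27 in GFP-positive cells and 0.50 in GFP-negative cells, against 0.04 over all tested probe sets in each. Between GFP-positive and GFP-negative cells it was -0.17.

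Crct1, a cysteine-rich protein of the differentiation complex, had 459.6 and 571.9 in GFP-positive cells, 502.9 and 752.2 in GFP-negative cells, and 92.4 and 147.5 in control cells. The treated arrays were all far above both controls, by 1.88 ± 0.35 and 2.13 ± 0.35 on the log2 scale (limma adjusted p = 0.150 and 0.181). Lce1h, a late cornified envelope protein whose probe set can bind relatives, had 1667 and 2771 in GFP-positive cells, 2310 and 5226 in GFP-negative cells, and 639.3 and 950.6 in control cells. Here too every treated array exceeded both controls. Lce1f, of the same family, had 370.7 and 654.1 in GFP-positive cells, 583.5 and 1237 in GFP-negative cells, and 114.1 and 317.9 in control cells, with GFP-negative above GFP-positive within each replicate number. Sbsn (suprabasin), an upper-epidermis protein, had log2 differences of 1.01 ± 0.33 and 0.90 ± 0.33 in GFP-positive and GFP-negative cells. These come from the brightest of its 3 probe sets, which is also of a type that can bind relatives.

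The major scaffold proteins that Sprr proteins are joined to were less clear. Lor (loricrin), the main envelope protein, had 798.3 and 324.6 in GFP-positive cells, 656.4 and 331.3 in GFP-negative cells, and 371.9 and 106.7 in control cells. It was higher in treated cells within each replicate number but the groups overlapped, and its dimmer second probe set had 35.6 in GFP-positive replicate 2 against 51.6 in its control. Ivl (involucrin), an early envelope protein, had 137.6 and 71.2 in GFP-positive cells, 193.5 and 438.6 in GFP-negative cells, and 58.0 and 172.3 in control cells. The GFP-negative arrays were the highest, and the GFP-positive arrays overlapped the controls. Tgm1, the transglutaminase that cross-links the envelope, had 107.3 and 36.6 in GFP-positive cells, 80.8 and 50.8 in GFP-negative cells, and 85.4 and 78.8 in control cells, which overlap.

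The genes that flank the family on chromosome 3 showed no single pattern. Lor, Prr9 and Lelp1 lie before the family and Ivl and the Lce1 genes after it. Prr9, a small proline-rich protein gene named after its values were seen, had 142.6 and 203.8 in GFP-positive cells, 147.0 and 212.8 in GFP-negative cells, and 45.8 and 6.3 in control cells. By contrast Lce1a1, Lce1b and Lce1a2, also singled out after their values were seen, overlapped between treated and control arrays. Lce1f, which also lies after the family, had all treated arrays above both controls, as did Prr9. This was so for 9.46% of all probe sets that passed the filter. For the dimmer Lelp1, the GFP-positive arrays were above both controls and the GFP-negative arrays overlapped them. Within the family, Sprr1b and Sprr3 lie between Sprr2k and Sprr1a, so the 2 separated genes are not direct neighbours. Of 13 listed S100 genes, calcium-binding proteins of the same complex, 8 passed the filter and none was called by limma with or without the block, with 1, 1 and 0 at an unadjusted p under 0.05 in the 3 comparisons. Their median log2 difference was 0.20 in GFP-positive and 0.32 in GFP-negative cells. Among them, S100a1 and S100a3 had all treated arrays above both controls, against 9.46% of all probe sets that passed the filter, and S100a1 had 1169 and 1099 in GFP-positive cells, 1169 and 1245 in GFP-negative cells, and 450.3 and 895.6 in control cells. S100a13 overlapped.

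AP-1 subunits and other known regulators of epidermal genes made up the next list. Of 28, 27 were on the array and 21 passed the filter. Limma called 1 higher and none lower in GFP-positive cells (Fosl1) and none in GFP-negative cells or between the sorted populations. With the block, 6 rose (Atf3, Ets1, Fosb, Fosl1, Jun and Junb) and 2 fell (Klf4 and Maf) in GFP-positive cells, and 3 rose (Ets1, Fosl1 and Jun) and 1 fell (Maf) in GFP-negative cells. All treated arrays were above both controls for 6 of the 21 and below both for 5, against 9.46% and 8.26% of all probe sets that passed the filter. The list's median log2 difference was 0.12 in GFP-positive and 0.04 in GFP-negative cells, and 7, 6 and 0 had an unadjusted limma p under 0.05 in the 3 comparisons.

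Fosl1, which encodes the AP-1 subunit Fra-1, had 1532 and 1952 in GFP-positive cells, 1491 and 1565 in GFP-negative cells, and 304.3 and 444.0 in control cells. It rose in GFP-positive cells by 2.14 ± 0.27 on the log2 scale (limma adjusted p = 0.0456), and the difference in GFP-negative cells was 1.97 ± 0.27 (limma adjusted p = 0.0993). Its call was lost when any single array was left out and under quantile normalization. The second Fosl1 probe set, dimmer, was also above both controls on all treated arrays, with 360.8 and 239.5 in GFP-positive cells, 276.8 and 266.8 in GFP-negative cells, and 75.8 and 114.5 in control cells. Jun, the usual partner of Fra-1, had 4832 and 4622 in GFP-positive cells, 3775 and 3940 in GFP-negative cells, and 2173 and 1524 in control cells, a separation that limma did not call (adjusted p = 0.115 and 0.356). Junb had log2 differences of 0.99 ± 0.27 and 0.71 ± 0.27. Ets1, an Ets factor, had differences of 0.87 ± 0.22 and 0.93 ± 0.22. Fos, an immediate early subunit, differed far more between replicates than between groups, with 4338 and 1987 in GFP-positive cells, 6338 and 1358 in GFP-negative cells, and 3882 and 594.5 in control cells. Klf4, a factor of the upper epidermis, had 2707 and 2133 in GFP-positive cells, 3960 and 2325 in GFP-negative cells, and 4461 and 3308 in control cells, with its GFP-positive arrays below both controls at this probe set and overlapping them at its dimmer one.

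Markers of keratinocytes, which a skin culture could also hold, were read beside these values. Apart from fibroblasts, no other cell type was given a marker list. Of 24 keratinocyte markers, 22 were on the array, none was at 0, 9 were below the array's median on every array and 2 (Krt15 and Col17a1) were below the lower quartile on every array. Their summed signal was 3266.2 and 1921.6 in GFP-positive cells, 2773.4 and 2174.3 in GFP-negative cells, and 2162.8 and 1458.3 in control cells, so it was higher in treated cells within each replicate number. Lor and Sfn made up a large part of this: within replicate 2, GFP-positive cells had 324.6 and 335.4 for them, against 106.7 and 5.9 in control. Of the 10 markers that passed the filter, 5 had a positive log2 difference from control in GFP-positive cells, and 5 in GFP-negative cells. Limma called none of the 10 that passed the filter, of which 2, 1 and 0 had an unadjusted p under 0.05, and their median log2 difference was 0.02 in GFP-positive and 0.03 in GFP-negative cells. With the block 3 rose in GFP-positive cells (Lor, Perp and Sfn) and 2 in GFP-negative cells (Lor and Sfn). All treated arrays were above both controls for 2 of the 10 (Perp and Sfn) and below both for 1. The shares were 9.46% and 8.26% of all probe sets that passed the filter. Perp, a desmosome protein and p53 target, and Sfn (stratifin), a cell cycle checkpoint protein and p53 target, are not specific to keratinocytes.

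No defining keratinocyte marker that was analysed had all treated arrays above both controls. Krt5, a basal keratin, had 279.0 and 52.4 in GFP-positive cells, 137.0 and 128.2 in GFP-negative cells, and 196.6 and 71.3 in control cells. Krt14, its partner, had 68.1 and 15.8 in GFP-positive cells, 100.2 and 63.7 in GFP-negative cells, and 102.8 and 45.1 in control cells. Trp63, which encodes the master regulator p63, had 72.3 and 71.2 in GFP-positive cells, 55.3 and 70.9 in GFP-negative cells, and 98.3 and 81.4 in control cells at its brightest probe set, the controls being the highest. Its dimmer probe sets disagreed with each other. One had 97.9 and 41.6 in GFP-positive cells, 76.2 and 5.64 in GFP-negative cells, and 47.3 and 6.8 in control cells. Another had 47.9 and 14.8 in GFP-positive cells, 17.1 and 58.0 in GFP-negative cells, and 16.4 and 11.1 in control cells. The last had 41.2 and 14.8 in GFP-positive cells, 17.7 and 10.5 in GFP-negative cells, and 29.7 and 71.8 in control cells. No direction can therefore be read for Trp63. Krt10, a suprabasal keratin, had 325.8 and 402.7 in GFP-positive cells, 225.1 and 295.1 in GFP-negative cells, and 320.7 and 218.3 in control cells. The GFP-positive arrays of Krt10 were above both controls and the GFP-negative ones between them. Itgb4, a basal integrin, was dim, with 19.1 and 22.8 in GFP-positive cells, 24.1 and 6.45 in GFP-negative cells, and 12.8 and 10.5 in control cells. Krt1, Krt15 and Col17a1 overlapped between treated and control arrays or were dim throughout. No probe set of Dsg3 was analysed here.

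The 19 fibroblast markers on the array, of 20 listed, all passed the filter, and none was below its array's median throughout, so the cells carried the markers of their label. Their summed signal was 263898.6 and 271483.9 in GFP-positive cells, 283765.2 and 266786.6 in GFP-negative cells, and 323235 and 344734.5 in control cells, lower on every treated array. Limma called none of them, with 8, 6 and 0 at an unadjusted p under 0.05, and their median log2 difference was -0.76 in GFP-positive and -0.52 in GFP-negative cells. With the block 11 fell in GFP-positive cells and 9 in GFP-negative cells, with none rising. All treated arrays lay below both controls for 11 of 19, against 8.26% of all probe sets that passed the filter. Prrx1, a mesenchymal transcription factor, had log2 differences of -1.01 ± 0.19 and -0.66 ± 0.19 in GFP-positive and GFP-negative cells. Lum (lumican), a collagen-binding proteoglycan, had -2.92 ± 0.73 and -3.25 ± 0.73. The part of these marker shifts in the Sprr1a and Sprr2k values was not tested.

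**Figure D4:**
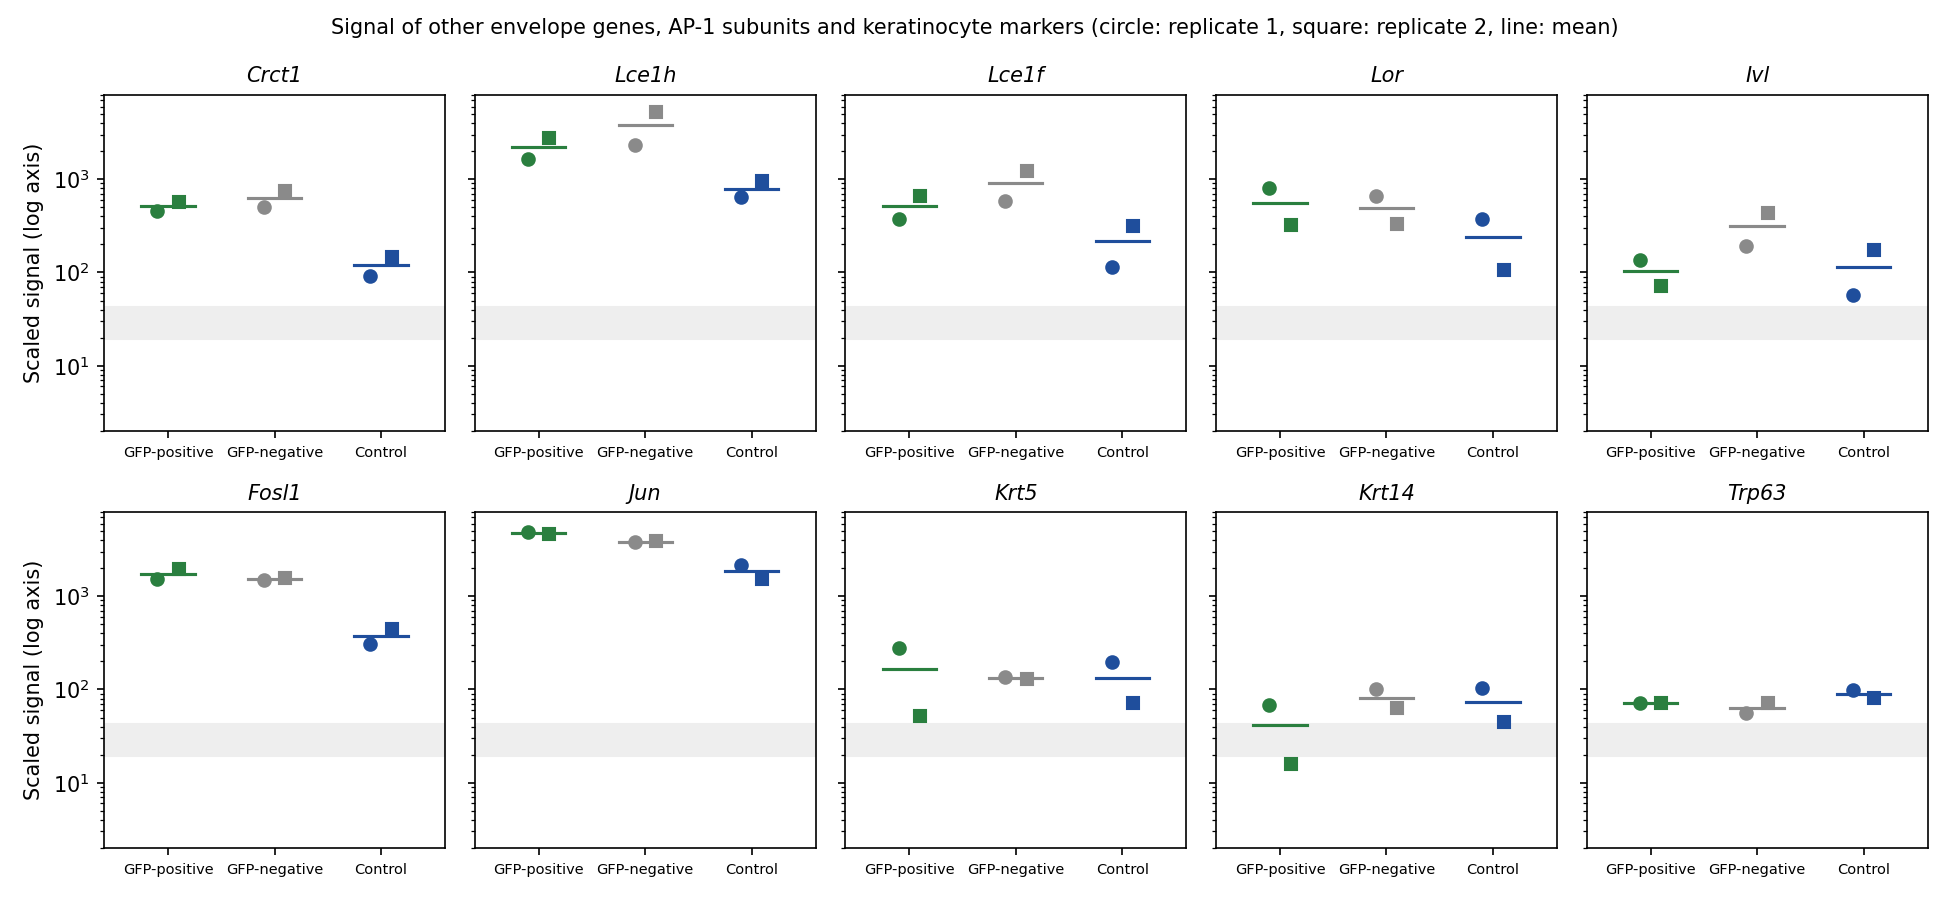
Scaled signal (log axis) of other envelope genes (Crct1, Lce1h, Lce1f, Lor, Ivl), AP-1 subunits (Fosl1, Jun) and defining keratinocyte markers (Krt5, Krt14, Trp63) in GFP-positive (green), GFP-negative (grey) and control cells (blue). Circles are replicate 1, squares replicate 2, lines the means of 2 arrays, and the shaded band spans the lower quartiles of the 6 arrays, 19.2 to 42.5. Crct1, Lce1h, Lce1f, Fosl1 and Jun have all treated arrays above both controls, while Krt5 and Krt14 overlap. Trp63 is drawn at its brightest probe set, where the controls are highest, and its other probe sets disagree with each other.

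The genes most like Sprr1a in pattern were found among 5452 genes by Pearson's r over the 6 arrays, after the mean of each replicate number was taken off. The highest were Coro1a, an actin regulator of leukocytes (r = 0.9989), Cd68, a lysosomal protein of macrophages (r = 0.9986), Cdcp1 (r = 0.9974), Smim3 (r = 0.9970) and Arhgef5 (r = 0.9968). Coro1a had 148.2 and 156.3 in GFP-positive cells, 149.7 and 111.3 in GFP-negative cells, and 70.8 and 18.6 in control cells. The same measure for Sprr2k, added after the data were seen, gave Angptl4, a secreted lipase inhibitor (r = 0.9994), Nes, the intermediate filament nestin (r = 0.9989), Dazap1 (r = 0.9984), Crct1 (r = 0.9982) and Abcb1a, a drug efflux pump (r = 0.9975). Nes had 1214 and 1284 in GFP-positive cells, 1287 and 1492 in GFP-negative cells, and 407.2 and 391.2 in control cells. These are the highest of many values over few arrays that share their groups, and they describe a pattern and nothing further.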

How the data were processed

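RNA of the 6 samples was measured on Affymetrix arrays, and the deposited values are MAS5 intensities per probe set, per the submitters' processing notes. Its version is not given in those notes. The number of arrays limits the precision. The 64 control probe sets were left out, leaving 45037 (34945 with 1 symbol, 932 with several and 9160 unnamed in the platform annotation). Arrays were brought to a common 2% trimmed mean of 500, an offset of 30.6 (the median of the arrays' 25th percentiles) was added and log2 taken. Probe sets with a mean signal of at least the 40th percentile (67.7) were kept, 27022 in all. Groups were compared with limma 3.58.1 in R 4.3.3 over all 6 arrays (3 residual degrees of freedom, eBayes with trend, Benjamini-Hochberg adjustment, threshold 0.05), and the code was tested on simulated data. Each listed gene is given by its brightest probe set with 1 symbol, whether or not that passed the filter. The calls and median differences of a list use only those that passed.

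The members and gene lists were chosen with earlier results of these data known. Named genes were the members, every called gene and up to 3 genes of smallest p per list and comparison, the defining keratinocyte markers, and Fos, Fosl1, Jun, Junb and Klf4. Genes called only with the block are named where a count is given. The 5 genes most like the brightest member were taken by correlation, among genes with a range of at least 1 log2 unit. The labels call the arrays of a group biological replicates, but nothing says that a number marks 1 litter or day. Same-numbered arrays of different groups deviated together (r = 0.506 to 0.556 over probe sets), so the replicate number was tried as a block. Promoters came from RefSeq and were searched and aligned with Biopython 1.88 in Python 3.11.15. Alternatives covered normalization, offset, filter, trend, block and each array left out, and, added after seeing the data, both rescaled arrays left out.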

Additional observations from a re-analysis of the deposited data

How the results depend on the processing

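Over the 12 settings, the log2 difference of Sprr1a from control ranged from 1.61 to 3.38 in GFP-positive and from 1.64 to 2.70 in GFP-negative cells. That of Sprr2k ranged from 1.48 to 1.83 and from 1.65 to 2.05. For both genes all 4 treated arrays exceeded both controls, so leaving out arrays or raising the offset could not reverse the sign. The block leaves each difference unchanged. Only quantile normalization and median centring could have changed the direction, and they did not. Of single Sprr values, 238 moved by no more than the replicate spread and 50 by more. That spread was the SD of the values from each replicate number alone. The settings with 1 replicate number alone, and the block, therefore could not move by more, and their values are among the 238. These differences are given without a test, and several members took both signs over the settings. In GFP-positive cells these were Sprr1b (-0.24 to 1.00), Sprr2h (-1.14 to 0.51) and Sprr2i (-0.14 to 0.02). In GFP-negative cells they were Sprr2d (-0.01 to 0.45), Sprr2f (-0.75 to 1.22), Sprr2h (-0.38 to 1.27), Sprr2i (-0.12 to 0.29) and Sprr3 (-0.50 to 1.29). The members' median in GFP-positive cells against control (0.34) was 0.15 with 4 times the offset, 0.08 in replicate number 1 alone, 0.54 in replicate number 2 alone, and 0.53 and 0.19 when control replicate 1 or 2 was left out. The median in GFP-negative cells against control (0.42) was 0.19 with 4 times the offset, 0.74 in replicate number 1 alone and 0.10 to 0.85 with single arrays left out (the extremes come from leaving out GFP-negative replicate 1 and replicate 2). The 33 probe sets called in GFP-positive cells against control became 0 without a trend (1674 at an unadjusted p under 0.05 in limma), 1679 with the replicate block, 62 without both rescaled arrays and 0 to 35 with single arrays left out: leaving out GFP-positive replicates 1 and 2 gave 8 and 0, and leaving out control replicates 1 and 2 gave 2 and 13. The 8 called in GFP-negative cells became 16 with median centring, 3 with the stricter filter, 0 without a trend (1298 at an unadjusted p under 0.05), 966 with the block, 49 without both rescaled arrays and 0 to 6 with single arrays left out: leaving out GFP-positive replicates 1 and 2 gave 5 and 3, leaving out GFP-negative replicates 1 and 2 gave 0 and 1, and leaving out control replicate 1 gave 2. Between the sorted populations the count was 0 in every setting run. With the block, the lists held 6 and 5 called envelope genes, 3 and 2 keratinocyte markers, 8 and 4 regulators and 11 and 9 fibroblast markers in GFP-positive and GFP-negative cells. The single regulator call (Fosl1) became 0 under quantile normalization, without each single array and without both rescaled arrays. The labels share only a replicate number, so calls gained with the block rest on a pairing seen in the data. Leaving out an array lowers the residual degrees of freedom; the cause of the other shifts was not tested. The signal of dim members such as Sprr2i is limited by background.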
